A study of Mus musculus with 39 samples.

Results

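The comparison described here sets 5 mouse brain RNA-seq libraries treated with RTR59155 against 3 treated with ASO 1, together 8 of the 39 libraries of the series. The pair was chosen by readout: among the treatments, they had the lowest Tmem106b and the most genes that were lower than saline in both. Those values against saline are therefore given as a description, and the question tested is which changes differ between the 2 treatments. The series compares mice given antisense oligonucleotides (ASOs) against Tmem106b. It has 9 groups of 3 to 5 libraries, 8 of them treated and 1 of them saline, and the 5 saline libraries are the common control here.

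The labels give mouse brain as the tissue of every group and name the agent, RTR59155, ASO 1 or saline. They state no strain, genotype, sex, age, dose, route, time after dosing or brain region for any group, and no sequence or chemistry for either oligonucleotide. The protocol mentions RNA from a cell pellet, although the tissue label says brain. Nothing states whether the libraries of a group came from separate animals. The p-values therefore rest on the spread between libraries within groups, which may be technical. That spread was estimated over all 39 libraries of the 9 groups. Poly(A) RNA was sequenced from stranded libraries.

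An antisense oligonucleotide is a short synthetic strand that pairs with a transcript. Many designs recruit RNase H1, which cuts the RNA of the pair, in the nucleus as well as in the cytoplasm, so intron sequences can also be targets. Transcripts other than the intended target that pair well enough can be lost too, and such losses depend on the sequence of each oligonucleotide. Tmem106b encodes a membrane protein of late endosomes and lysosomes. It is studied in brain because human variants near the gene are linked to frontotemporal dementia with progranulin loss.

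RTR59155 libraries held 34.0 ± 1.19 M gene counts (SD, n = 5), ASO 1 libraries 35.1 ± 0.817 M (SD, n = 3) and saline libraries 32.8 ± 1.79 M (SD, n = 5). Levels are given below as CPM, a gene's count per M counts of its library's TMM-adjusted total. No pair of libraries among the 68 compared within groups differed by as little as sampling noise. The 15 pan-neuronal marker genes, among them Snap25 and Rbfox3, were all tested, and their summed level was 13500 to 14700 CPM in RTR59155, 13100 to 14800 in ASO 1 and 13700 to 14800 in saline, so the material carried the label's tissue markers. The libraries also differed in regional content. Pmch, a neuropeptide gene of the lateral hypothalamus, exceeded 5 CPM in 2 of 3 ASO 1 libraries and in 2 of 5 RTR59155 libraries, and in 0 of 5 saline libraries.

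The intended target was lost to about the same level under both agents. Tmem106b (chromosome 6, 13069759 to 13089269 on GRCm38, plus strand) stood at 43.9, 62.2 and 53.7 CPM in the 3 ASO 1 libraries. It stood at 50.3, 50.1, 49.4, 63.5 and 76.4 CPM in the 5 RTR59155 libraries. The saline libraries had 214, 187, 171, 196 and 192 CPM. All 8 treated libraries lay far below the lowest saline library, and the ranges of the 2 treated groups overlapped. Relative to saline the fitted level was -69.8% in RTR59155 and -72.2% in ASO 1. The direct log2 difference, RTR59155 minus ASO 1, was 0.12 with a 95% interval of -0.19 to 0.44. The group means were 53.3 ± 9.14 CPM in ASO 1 (SD, n = 3) and 57.9 ± 11.9 CPM in RTR59155 (SD, n = 5), and the next lowest treatment, RTR113609, had 68.2 CPM. As Tmem106b served to choose the pair, these values carry no test.

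Against saline, 96 genes were lower and 21 higher in RTR59155, which is 0.499% and 0.109% of the 19246 genes tested. In ASO 1, 34 were lower and 10 higher, which is 0.177% and 0.052%. All of these counts use edgeR's quasi-likelihood test with Benjamini-Hochberg adjusted p under 0.05. The lower genes had 30 members in common, 0.156% of the genes tested, and 1 gene, Trf, was higher in both. The choice of the pair used these contrasts, and both share the saline libraries, so nothing is read from the counts.

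The shared falls include long neuronal genes of cell adhesion. Nrxn3, which encodes neurexin 3, a presynaptic adhesion protein, had 81.5, 87.8 and 87.1 CPM in ASO 1. In RTR59155 it had 76.6, 78.3, 82.3, 88.4 and 104 CPM, and in saline 198 to 225 CPM. The direct log2 difference was 0.01 (95% interval -0.14 to 0.16), and the treated groups overlapped. Pcdh9, a delta protocadherin of neurons, had 55.5, 69.0 and 61.5 CPM in ASO 1. Its RTR59155 libraries had 54.5, 62.5, 54.2, 72.9 and 79.4 CPM, and saline 124 to 157 CPM. Here too the treated groups overlapped, with a direct log2 difference of 0.06 (95% interval -0.13 to 0.25).

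Among the 8 RTR59155 and ASO 1 libraries, Tmem106b, Nrxn3 and Pcdh9 were each highest in RTR59155 replicate 5, and RTR59155 replicate 4 held the second-highest value of all 3 genes. Within RTR59155 these 3 losses were thus least deep in the same libraries. This order was seen after the fact, was not tested and did not hold for every shared fall. Rbm5, another shared fall, was deepest in replicates 5 and 4, at 69.0% and 72.4% of its saline mean. The other RTR59155 libraries had 77.2% to 78.0%.

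**Figure D1:**
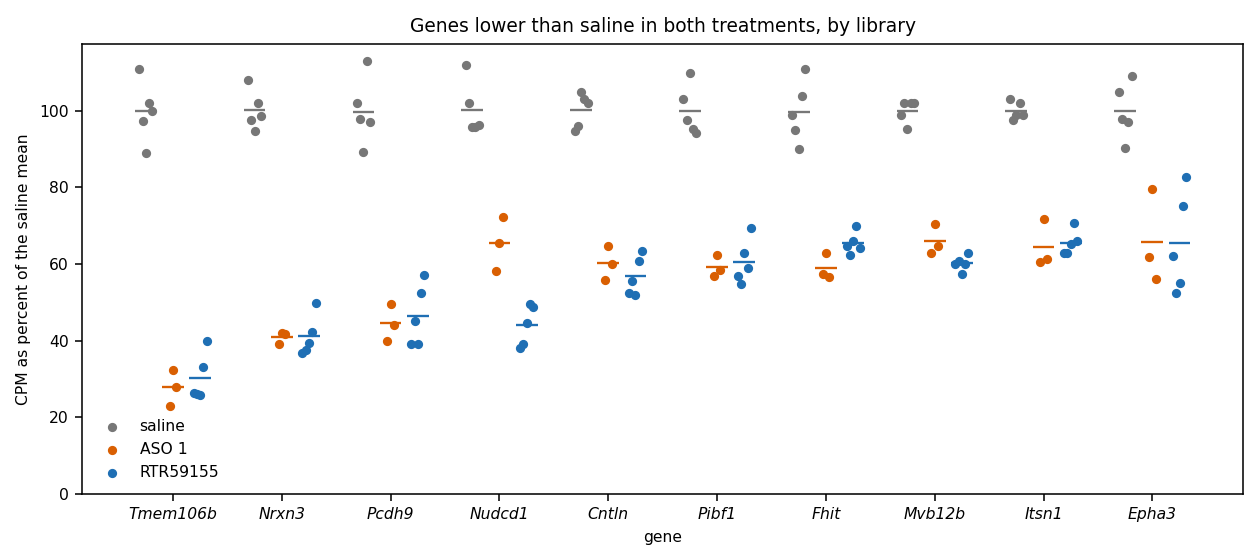
Level of 10 genes lower than saline in both treatments, in every library, as percent of the gene's saline mean CPM (y axis, from 0). Points are libraries (saline n = 5, ASO 1 n = 3, RTR59155 n = 5) and bars are group means. The treated groups overlap for all of these genes except Nudcd1, where the 5 RTR59155 libraries lie below the 3 ASO 1 libraries.

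Of the 30 shared falls, 2, Abl1 and Nudcd1, were lower in RTR59155 than in ASO 1, and 28 did not pass the adjusted threshold between the agents. The median direct log2 difference over the 30 was 0.01, with a range from -0.57 to 0.15, beside a median of 0 over all genes tested. The 30 were picked for low values in both treatments, so a small difference between the agents is expected in part from the choice. Among the shared falls given next, the intervals were narrower for well expressed genes and wider for weak ones. That did not hold for Tmem106b, with a wide interval (-0.19 to 0.44) at 53.3 CPM in ASO 1. Itsn1, an endocytic scaffold, had a difference of 0.02 (95% interval -0.11 to 0.15) at 110 CPM in ASO 1. Fhit, a hydrolase gene across a fragile site, had 0.15 (-0.12 to 0.42) at 2.42 CPM in ASO 1, and Epha3, an ephrin receptor gene, had 0.00 (-0.29 to 0.28). Pibf1 and Cntln, both genes of centrosome proteins, had 0.03 (-0.15 to 0.21) and -0.08 (-0.26 to 0.10). Mvb12b, an ESCRT-I subunit gene, had an interval that did not reach 0, with a difference of -0.13 (-0.23 to -0.03), but its adjusted p was 0.648 by edgeR. The same held, without passing, for Plxdc2 (-0.17, -0.34 to -0.01) and Efna5 (-0.16, -0.30 to -0.02). Anapc5 lay the other way (0.12, 0.01 to 0.23), also without passing. These last genes are named here after their values were seen. Trf, the transferrin gene made by oligodendrocytes, was the shared rise and had a difference of -0.02 (-0.18 to 0.15). Most of its exonic bases, 63.5%, are also annotated to Gm20425 on the same strand, so its reads could be split between the 2 names.

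**Figure D2:**
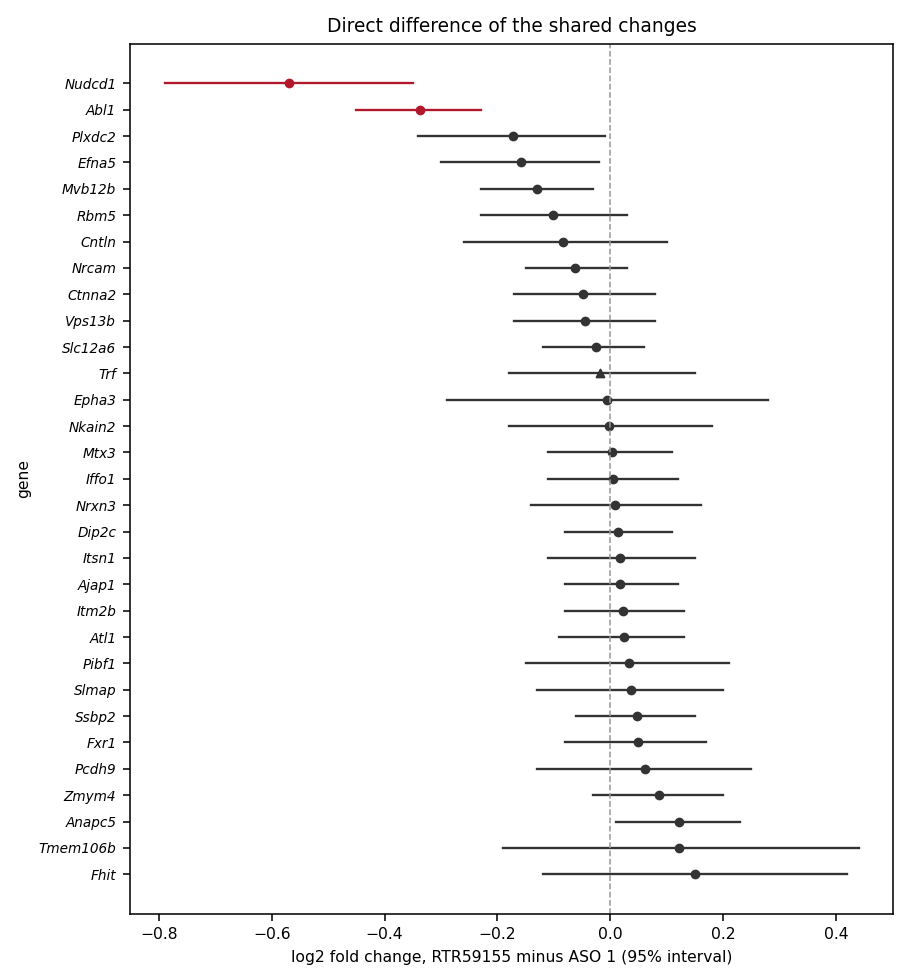
Direct log2 fold change, RTR59155 minus ASO 1 (x axis), with its 95% interval, for the 30 genes lower than saline in both treatments (circles) and for Trf, higher in both (triangle). Abl1 and Nudcd1, in red, are the genes past the adjusted threshold.

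Compared directly, the 2 agents differed in 8 of 19246 genes, 0.0416% of those tested, by edgeR's quasi-likelihood test with Benjamini-Hochberg adjusted p under 0.05. Of these, 7 were lower in RTR59155, 0.0364% of the genes tested, and 1 was higher. For all 8 the libraries of the 2 groups did not overlap, which held for 815 genes or 4.23% of all genes tested. No difference reached 2-fold. At an unadjusted p under 0.05 there were 1218 genes, 678 lower and 540 higher.

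The 8 genes fell into 2 patterns against saline. Col19a1, Abl1, Nudcd1 and Galnt6 lay furthest below saline in RTR59155. Gimap6, Sik1 and Klf15 were above the saline mean in ASO 1 and near it in RTR59155, and Lcmt2 was below the saline mean in ASO 1 and above it in RTR59155. These calls rest on few libraries. With the 2 groups fitted alone the count was 0 (1059 at an unadjusted p under 0.05). A further fit left out every library of the series with Pmch above 5 CPM, 4 of them in these 2 groups. It leaves ASO 1 with 1 library, assumed to vary like the other groups. Without ASO 1 replicate 2 the count was 1, Col19a1. Without ASO 1 replicate 1 or without RTR59155 replicate 3 it was 3, without RTR59155 replicate 4 it was 4, and without RTR59155 replicate 1 it was 5. All 8 genes kept their direction in all 16 alternative fits. Their groups do not overlap, so leaving out libraries could hardly reverse a direction, and nothing is read from this. Over these fits the log2 difference of Col19a1 ranged from -1 to -0.88, that of Abl1 from -0.36 to -0.29 and that of Sik1 from -0.64 to -0.44.

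**Figure D3:**
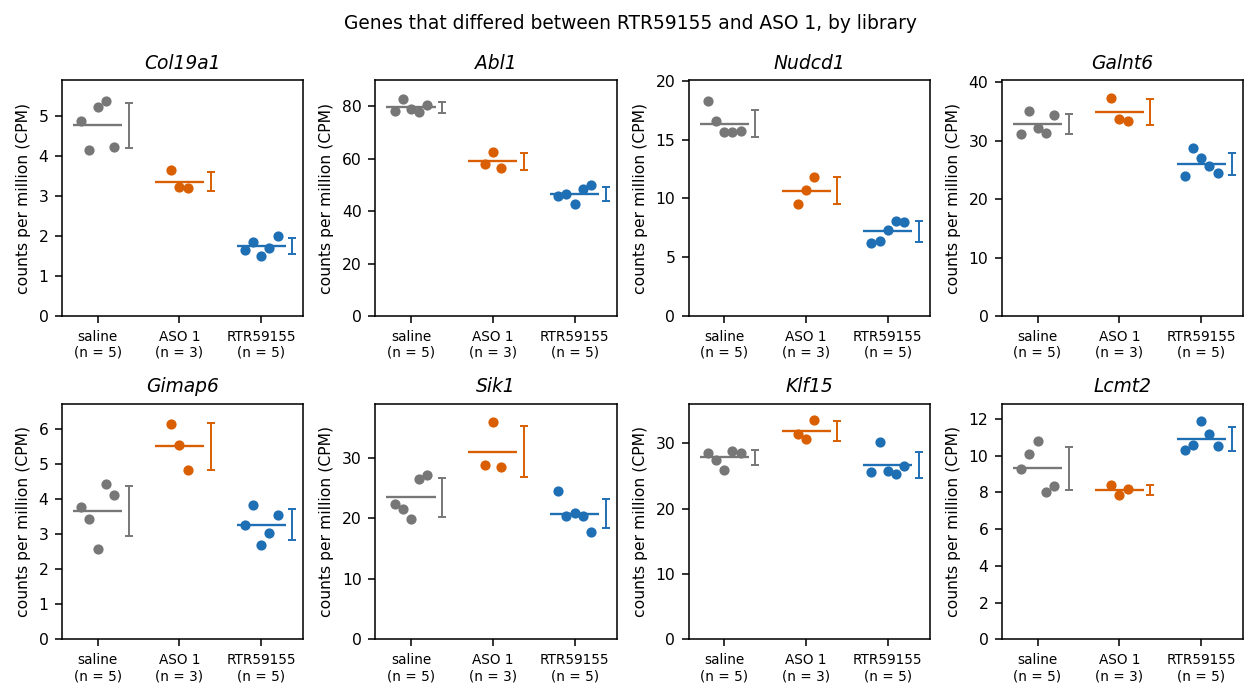
Level in CPM (y axes, from 0) of the 8 genes that differed between RTR59155 and ASO 1, in every library of saline (n = 5), ASO 1 (n = 3) and RTR59155 (n = 5). Horizontal bars are means and the brackets beside them are ± 1 SD. In each panel the ASO 1 and RTR59155 points do not overlap.

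Col19a1 (chromosome 1, 24261890 to 24587472, minus strand) encodes collagen XIX, a minor collagen made in brain by interneurons. It had 3.64, 3.23 and 3.21 CPM in ASO 1. In RTR59155 it had 1.66, 1.86, 1.5, 1.69 and 2.01 CPM, from 51 to 71 counts a library, and in saline 4.14 to 5.37 CPM. The 3 groups did not overlap, and all RTR59155 libraries were the lowest. The direct log2 difference was -0.94 (SE 0.143, adjusted p = 0.00177 by edgeR), the largest of the 8, and the call was kept in 14 of the 16 alternatives.

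Abl1 (chromosome 2, 31688376 to 31804227, plus strand) encodes a non-receptor tyrosine kinase that acts on the actin cytoskeleton. Its levels were 57.9, 62.6 and 56.4 CPM in ASO 1, and 45.7, 46.5, 42.8, 48.5 and 49.8 CPM in RTR59155. Saline had 77.8 to 82.8 CPM, so the 3 groups again formed separate steps. On the log2 scale the direct difference was -0.34 (SE 0.0546, adjusted p = 0.00327 by edgeR), and 13 of 16 alternatives kept the call.

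Nudcd1 (chromosome 15, 44373163 to 44428307, minus strand) encodes a NudC domain protein. It had 9.49, 10.7 and 11.8 CPM in ASO 1, and 6.21, 6.39, 7.27, 8.10 and 7.96 CPM in RTR59155. Saline had 15.6 to 18.3 CPM. The RTR59155 libraries were all below the ASO 1 libraries, which were all below saline, with a direct log2 difference of -0.57 (SE 0.110, adjusted p = 0.0269 by edgeR). The call was kept in 8 of 16 alternatives. The annotation places 2.01% of its exonic bases opposite exons of Eny2.

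Galnt6 (chromosome 15, 100691813 to 100729376, minus strand) encodes an enzyme that starts mucin-type O-glycosylation. It had 37.4, 33.8 and 33.4 CPM in ASO 1 and 24.0, 28.7, 27.1, 25.6 and 24.5 CPM in RTR59155. Saline libraries, at 31.2 to 35.1 CPM, overlapped ASO 1 and lay above every RTR59155 library. The agents differed by a log2 value of -0.42 (SE 0.0734, adjusted p = 0.00858 by edgeR), kept in 12 of 16 alternatives. An opposite-strand transcript, Galnt6os, covers 11.4% of its exonic bases, and the sources used here do not give the strand setting of the counting.

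Across the other treatments of the series the 4 genes did not move alike. Abl1 had means of 79.3 to 80.0 CPM in ASO 3, ASO 4 and RTR113609, the level of saline, and 52.8 to 61.2 CPM in ASO 2, RTR113643 and RTR113841. Nudcd1 had 16.9 and 17.0 CPM in RTR113609 and ASO 3, and 7.89 CPM in RTR113841, close to RTR59155. Col19a1 had 3.53 to 3.83 CPM in ASO 2, ASO 3, ASO 4 and RTR113609, near the 3.36 CPM of ASO 1, and 2.57 and 2.26 CPM in RTR113643 and RTR113841, so every treated mean was below the saline mean of 4.76 CPM. Galnt6 was lowest in RTR113643, at 24.0 CPM, followed by RTR59155 at 26.0 CPM. These differences among the other treatments were not tested here.

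**Figure D4:**
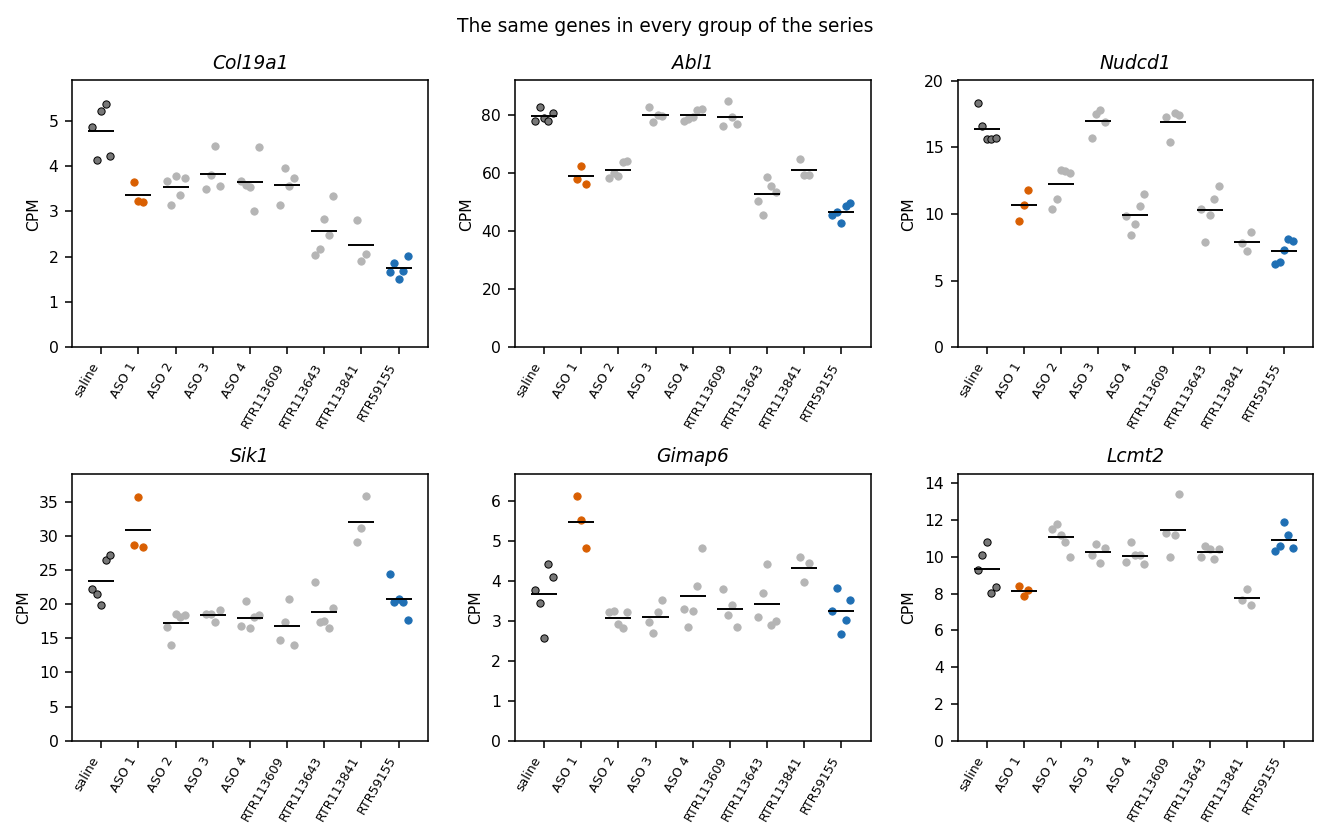
Level in CPM (y axes, from 0) of 6 of the 8 genes in all 39 libraries, by group. Points are libraries and bars are group means. Saline is dark grey, ASO 1 orange, RTR59155 blue and the other treatments light grey. Abl1 and Nudcd1 stay at the saline level in some treatments, and the Sik1 mean is highest in RTR113841 and ASO 1.

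In 3 of the other 4 genes, Gimap6, Sik1 and Klf15, ASO 1 lay further from the saline mean than RTR59155 did. Gimap6 (chromosome 6, 48701582 to 48708225, minus strand), a GTPase gene of the immunity-associated family, had 6.14, 5.53 and 4.82 CPM in ASO 1. It had 3.25, 3.83, 2.68, 3.02 and 3.53 CPM in RTR59155 and 2.58 to 4.44 CPM in saline. RTR59155 lay within the saline range and ASO 1 above it, with a direct log2 difference of -0.75 (SE 0.146, adjusted p = 0.0269 by edgeR). ASO 1 minus saline was 0.58 with an adjusted p of 0.0823 by edgeR, and 8 of 16 alternatives kept the direct call.

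Sik1 (chromosome 17, 31844250 to 31855804, minus strand) encodes a salt-inducible kinase, which is induced by cAMP signalling and restrains CREB coactivators. It had 28.7, 35.8 and 28.4 CPM in ASO 1, and 24.5, 20.4, 20.8, 20.4 and 17.7 CPM in RTR59155. Saline libraries had 22.3, 21.5, 19.9, 26.5 and 27.2 CPM, below every ASO 1 library and overlapping RTR59155. RTR59155 minus ASO 1 was -0.58 on the log2 scale (SE 0.114, adjusted p = 0.0290 by edgeR), kept in 7 of 16 alternatives.

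Klf15 (chromosome 6, 90462576 to 90475238, plus strand) encodes a transcription factor induced by glucocorticoids. Its libraries had 31.4, 30.7 and 33.6 CPM in ASO 1 and 25.6, 30.2, 25.8, 25.3 and 26.5 CPM in RTR59155. The gap between the groups was 30.2 against 30.7 CPM at its nearest, and saline spanned 26.0 to 28.8 CPM. Its direct log2 difference of -0.26 (SE 0.0527, adjusted p = 0.0483 by edgeR) passed narrowly and was kept in 3 of 16 alternatives.

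Lcmt2 (chromosome 2, 121128307 to 121140653, minus strand), whose yeast counterpart modifies transfer RNA, was the gene higher in RTR59155. It had 8.40, 7.87 and 8.18 CPM in ASO 1 and 10.3, 10.6, 11.9, 11.2 and 10.5 CPM in RTR59155. Saline spanned 8.03 to 10.8 CPM and so overlapped both, and the saline mean of 9.31 CPM lay between the 2 treated means. The direct log2 difference was 0.42 (SE 0.0814, adjusted p = 0.0269 by edgeR), kept in 7 of 16 alternatives, and 6.75% of its exonic bases lie opposite exons of Adal.

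In the rest of the series, RTR113841 had means close to ASO 1 for Sik1 (32.1 CPM) and Lcmt2 (7.74 CPM), and the next highest Gimap6 (4.34 CPM). The other 5 treatments had Sik1 means of 16.8 to 18.9 CPM and Lcmt2 means of 10.1 to 11.5 CPM. ASO 1 and RTR113841 are the groups with 3 libraries each. Per exonic length, in the deposited RPKM, Klf15 was the most abundant of the 8 genes in ASO 1 (10.2 RPKM) and Col19a1 the least (0.666 RPKM).

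The promoters were read for the short form of the cAMP response element, TGACG, on both strands. RefSeq promoter windows on GRCm38.p6, from 250 bases before to 50 after the start, were at hand for 6 of the 8 genes, not for Sik1 and Nudcd1. The element was in a window of 3 of them, Klf15, Galnt6 and Lcmt2, beside 23% of all genes in the table with a match in any of their windows. Abl1 and Galnt6 have 2 windows each. The windows of Klf15 and Lcmt2, each with 2 matches but opposite in direction between the agents, and that of Col19a1, the gene with the deepest difference and with no match, are printed 5′ to 3′ with matches in capitals. They lie at chr6:90462326-90462625 (plus strand), chr2:121140649-121140948 (minus strand) and chr1:24587388-24587687 (minus strand).
Klf15: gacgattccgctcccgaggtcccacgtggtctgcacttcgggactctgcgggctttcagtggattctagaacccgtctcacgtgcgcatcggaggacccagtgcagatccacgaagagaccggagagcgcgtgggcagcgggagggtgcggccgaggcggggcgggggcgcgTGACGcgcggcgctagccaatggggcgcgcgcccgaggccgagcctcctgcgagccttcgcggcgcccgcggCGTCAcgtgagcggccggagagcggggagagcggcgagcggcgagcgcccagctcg
Lcmt2: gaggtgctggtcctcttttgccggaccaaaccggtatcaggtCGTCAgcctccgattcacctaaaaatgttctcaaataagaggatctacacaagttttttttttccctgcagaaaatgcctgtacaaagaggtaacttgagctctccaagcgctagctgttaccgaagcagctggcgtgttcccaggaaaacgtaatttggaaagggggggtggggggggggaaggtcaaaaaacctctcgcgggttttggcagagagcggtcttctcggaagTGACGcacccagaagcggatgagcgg
Col19a1: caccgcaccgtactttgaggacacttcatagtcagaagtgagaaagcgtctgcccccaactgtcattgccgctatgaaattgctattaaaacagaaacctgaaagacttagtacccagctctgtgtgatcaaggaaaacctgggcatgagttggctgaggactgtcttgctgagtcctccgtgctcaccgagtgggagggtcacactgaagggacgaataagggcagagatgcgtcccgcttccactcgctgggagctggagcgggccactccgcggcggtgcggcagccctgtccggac

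Many genes that passed the threshold against saline under 1 agent only did not pass it between the agents. Of 66 genes lower in RTR59155 alone, 2 passed directly, Col19a1 and Galnt6, beside 0.0416% of all genes tested. The median direct log2 difference of the 66 was -0.12. They were picked for low RTR59155 values, which also enter the direct comparison, so a negative median is expected from the choice alone. Of 20 genes higher in RTR59155 alone, 0 passed directly, with a median of 0.04 and a range of -0.08 to 0.39. Itgax, an integrin gene of activated microglia, shows this. Its level was 16.3, 7.57 and 7.17 CPM in ASO 1, 11.6, 13.6, 10.8, 9.07 and 5.79 CPM in RTR59155, and 2.61 to 6.01 CPM in saline. The treated groups overlapped, and the direct difference was -0.03 (95% interval -0.68 to 0.63). The chemokine genes Ccl3 and Ccl6 had direct differences of 0.05 (-0.45 to 0.54) and -0.08 (-0.60 to 0.45).

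Several genes called in RTR59155 alone rest on few counts or on the saline libraries. Ticrr, a DNA replication gene, had 1, 1, 2, 0 and 3 counts in RTR59155, 5, 7 and 8 in ASO 1 and 6 to 10 in saline, and Lctl had 4 to 8, 12 to 15 and 16 to 21 counts. Their direct adjusted p were 0.422 and 0.557 by edgeR. Plin4, a lipid droplet gene, had 2.05 to 2.24 CPM in RTR59155, 2.84 to 3.24 CPM in ASO 1, and 11.6, 6.40, 7.25, 2.39 and 2.91 CPM in saline. Its groups did not overlap between the agents, yet saline replicates 4 and 5 were near ASO 1, and the direct adjusted p was 0.860 by edgeR. Fam83d, a mitotic spindle gene, had 0.753 to 1.33 CPM in RTR59155 and 1.41 to 2.15 CPM in ASO 1 (direct adjusted p = 0.520 by edgeR).

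Against saline, 13 genes passed in ASO 1 alone, 4 lower and 9 higher, and 0 of them passed in the direct comparison. The 9 higher genes had a median direct log2 difference of -0.28. They were picked for high ASO 1 values, which also enter the direct comparison, so a negative median is expected from the choice alone. Nfil3, a transcriptional repressor of the circadian system, came closest. It had 12.8 to 15.1 CPM in ASO 1, 9.94 to 11.3 CPM in RTR59155 and 9.84 to 11.9 CPM in saline, without overlap between ASO 1 and the others, and its direct difference was -0.36 (adjusted p = 0.0572 by edgeR). Gch1, whose enzyme opens the pathway to the cofactor tetrahydrobiopterin, had 2.26 to 3.34 CPM in ASO 1 and 1.46 to 1.94 CPM in RTR59155 (adjusted p = 0.237 by edgeR). Tmprss5, a serine protease gene, had 2.64 to 3.50 and 1.64 to 2.20 CPM (adjusted p = 0.217 by edgeR). Klf4, also among these genes, is described with the immediate early genes. Arid5a, Thsd1, Pbx3 and Mag had direct differences of -0.28, -0.18, 0.18 and -0.11, none past the threshold.

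Activity-regulated genes leaned toward ASO 1 as a list without any member passing the test. Sik1, which passed the direct comparison and is induced by cAMP signalling, was not on the list. Of 24 immediate early genes, 0 passed in the direct comparison and 21 had a negative difference, with a median log2 difference of -0.41 beside 0 over all genes. In 10 of the 24 the groups did not overlap, beside 4.23% of all genes, and 9 of these were lower in RTR59155. At an unadjusted p under 0.05 there were 14 of 24, beside 1218 of all 19246 genes tested. DESeq2 called 1 of them, among 24 genes that it called in all, and voom called 0. Nr4a1, a nuclear receptor gene induced by activity, had 167, 151 and 166 CPM in ASO 1 and 92.2, 119, 66.7, 103 and 62.6 CPM in RTR59155. Saline had 82.3, 78.8, 57.9, 173 and 153 CPM. ASO 1 lay above RTR59155, but saline replicates 4 and 5 reached the ASO 1 level and the other 3 did not, and the direct adjusted p was 0.520 by edgeR. Klf4, which was past the threshold against saline in ASO 1 alone (log2 fold change 0.71, adjusted p = 0.0274 by edgeR), had 9.89, 7.35 and 7.86 CPM in ASO 1 and 4.07 to 6.71 CPM in RTR59155 (direct log2 difference -0.63, adjusted p = 0.173 by edgeR). Egr4 had 23.8 to 28.9 and 17.5 to 21.6 CPM (-0.42, adjusted p = 0.520 by edgeR).

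Genes of sterol supply had a smaller and more even lean. All 23 cholesterol genes had a negative direct difference, the median was -0.11, 7 had groups that did not overlap (4.23% over all genes), and 0 passed in edgeR. At an unadjusted p under 0.05 there were 11 of 23, beside 1218 of all 19246 genes tested, and DESeq2 called 1 and voom 0. Mvd, a mevalonate pathway enzyme, had 28.9 to 30.2 CPM in ASO 1 and 22.4 to 25.8 CPM in RTR59155 (log2 difference -0.31, adjusted p = 0.281 by edgeR). Cyp51, lanosterol demethylase, had 79.0 to 90.2 and 69.9 to 74.4 CPM (-0.22, adjusted p = 0.489 by edgeR). Saline ranged from 19.9 to 27.0 CPM for Mvd, overlapping RTR59155 and below ASO 1. With 1 library left out, the list median ran from -0.08 without ASO 1 replicate 3 (21 negative) to -0.16 without ASO 1 replicate 1 (22 negative). Without RTR59155 replicate 3, 20 were negative. The summed level was 1570 to 1700 CPM in RTR59155 and 1690 to 1840 CPM in ASO 1. Saline, at 1540 to 1760 CPM, overlapped both.

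Among 20 glucocorticoid response genes, 0 passed, 16 were negative and the median was -0.14. It was -0.09 with 14 negative without ASO 1 replicate 2, and -0.04 with 11 negative without the high-Pmch libraries, a fit with 1 ASO 1 library. Per1, which is also a clock gene, had 151, 137 and 170 CPM in ASO 1 and 99.5 to 137 CPM in RTR59155 (-0.45, adjusted p = 0.420 by edgeR), with saline at 89.4 to 139 CPM. Sgk1, a glucocorticoid-induced kinase gene, had 91.1 to 97.1 and 66.2 to 90.0 CPM (-0.37, adjusted p = 0.35 by edgeR). Klf15, which passed the direct comparison and is induced by glucocorticoids, was not on the glucocorticoid list. Over the 17 clock genes the median was 0, with 0 past the threshold.

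**Figure D5:**
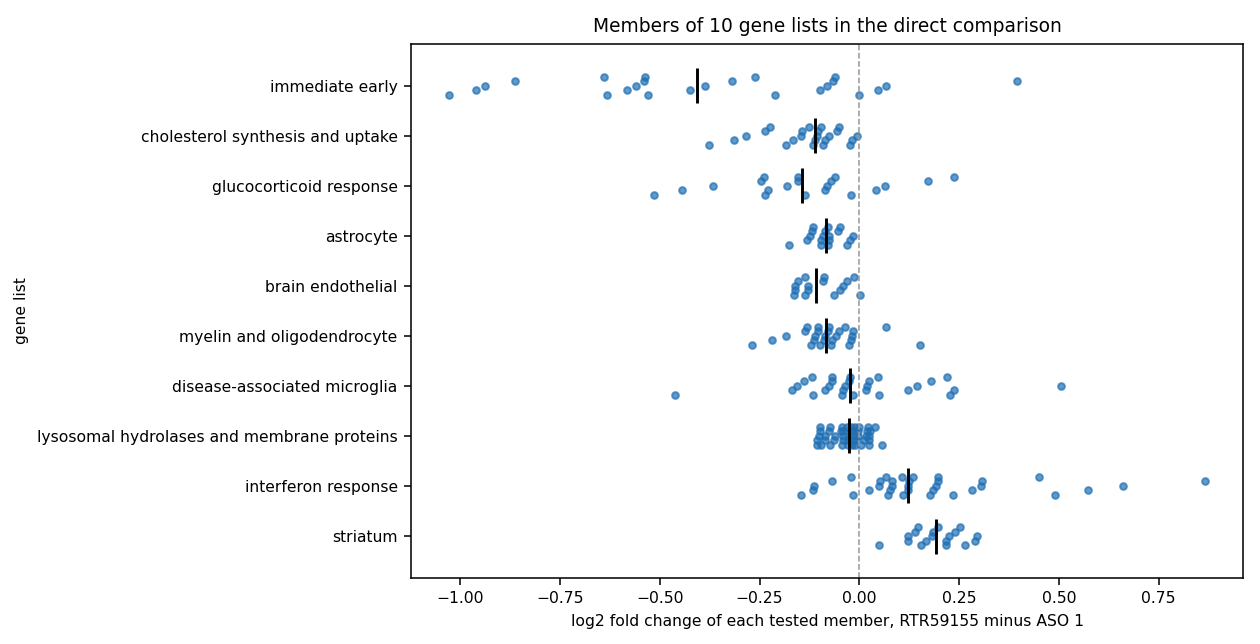
Direct log2 fold change, RTR59155 minus ASO 1 (x axis), of every tested member (points) of 10 gene lists, with each list's median (black bar) and 0 (dashed line). None of these members passed the adjusted threshold. Immediate early genes reach furthest to the left, and striatum and interferon genes lie mostly right of 0.

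The astrocyte, myelin and brain endothelial lists also lay slightly below 0. Medians nearer 0 were found for reactive astrocyte (0.00, 10 of 23 negative) and homeostatic microglia genes (0, 9 of 18). The same held for pericyte and smooth muscle (-0.02, 7 of 12) and oligodendrocyte precursor genes (-0.04, 9 of 14). The ependymal list lay lower, at -0.165 with 11 of 11 negative, but at 0.03 without ASO 1 replicate 2. In bulk tissue, fewer cells of a type and less RNA per cell cannot be told apart. All 18 astrocyte genes were negative with a median of -0.08, as were 24 of 26 myelin genes with a median of -0.08 and 15 of 16 endothelial genes with a median of -0.11, and 0 of them passed. The summed astrocyte level was 7790 to 8150 CPM in RTR59155, 8100 to 8720 CPM in ASO 1 and 7250 to 8520 CPM in saline, so the treated ranges overlapped. The endothelial median leaned on ASO 1 replicate 1: without it the median was 0.00, with 8 of 16 negative. Without that library it was -0.05 for astrocyte genes (17 of 18 negative) and -0.06 for myelin genes (19 of 26). Without the high-Pmch libraries, a fit with 1 ASO 1 library, the medians were -0.03 for astrocyte genes (11 of 18 negative). They were -0.04 for myelin genes (19 of 26) and -0.02 for endothelial genes (9 of 16). In the myelin list Mal, a myelin proteolipid gene, had the smallest p. It had 336, 322 and 310 CPM in ASO 1, 246 to 279 CPM in RTR59155 and 356 to 419 CPM in saline, with no overlap among the 3 groups, but a direct adjusted p of 0.459 by edgeR.

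Markers of neuronal regions leaned as well. All 18 striatal genes were higher in RTR59155, with a median of 0.19 and 0 past the threshold. Their summed level was 3820 to 5940 CPM in RTR59155, 3800 to 5130 CPM in ASO 1 and 5160 to 6400 CPM in saline. Of 19 hypothalamic genes 15 were negative, with a median of -0.41. That lean came with ASO 1 replicate 2, the library with the most Pmch (38.6 CPM): without it the median was 0.28 with 2 of 19 negative, and without ASO 1 replicate 1 it was -0.76. The striatal median was 0.10 without ASO 1 replicate 1, 0.33 without ASO 1 replicate 3 and 0.12 without RTR59155 replicate 5. With striatal and hypothalamic list means as covariates, 6 of the 8 directly called genes still passed, and Klf15 and Lcmt2 did not.

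No member of the immune lists passed in the direct comparison. The 28 genes of disease-associated microglia had medians against saline of 0.50 in RTR59155 and 0.48 in ASO 1, and a direct median of -0.02 with 0 members past the threshold and 0 without overlap. Against saline 5 of the 28 rose in RTR59155, beside 0.109% of all genes tested, in a contrast that the choice of the pair used. They were Itgax, Ccl3, Ccl6, Tyrobp and Cd52, the last 2 named here after their values were seen, and 0 passed in ASO 1. The 3 subunit genes of complement C1q, C1qa, C1qb and C1qc, also named after the fact, rose in RTR59155 by 0.62, 0.62 and 0.63 on the log2 scale. In ASO 1 they were at 0.66, 0.59 and 0.62 without passing, and their direct differences were -0.04, 0.03 and 0.01. Of 34 interferon response genes 28 were higher in RTR59155 with a median of 0.12, and 0 passed. The median was 0.04 with 12 lower without RTR59155 replicate 1, 0.05 without ASO 1 replicate 2 and 0.225 without ASO 1 replicate 1. Their summed level was 254 to 363 CPM in RTR59155 and 270 to 308 CPM in ASO 1. Il33, an alarmin gene, was the chemokine and cytokine list member with the smallest p. It had 102, 95.2 and 92.0 CPM in ASO 1 and 71.0 to 83.1 CPM in RTR59155, without overlap, and 84.1 to 107 CPM in saline (direct log2 difference -0.32, adjusted p = 0.141 by edgeR).

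The paralogs of the target and its lysosomal partners showed no direct difference past the threshold. Grn, which encodes progranulin, had 146, 111 and 104 CPM in ASO 1, 125, 135, 120, 107 and 96.8 CPM in RTR59155 and 81.1 to 104 CPM in saline. The treated groups overlapped, with a direct difference of -0.05 (95% interval -0.28 to 0.19). The paralogs Tmem106a and Tmem106c had direct differences of 0.02 (-0.36 to 0.41) and -0.02 (-0.13 to 0.09), so their levels, 2.59 and 39.5 CPM in ASO 1 and 2.63 and 38.9 CPM in RTR59155, were alike within those bounds. Over 46 lysosomal hydrolase and membrane protein genes the direct median was -0.03, the range -0.11 to 0.06 and 0 passed.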

How the data were processed

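The deposited files give, for each of the 39 libraries, a whole-number count of reads over exons per gene and an RPKM value per gene, both made by the authors and deposited without pooling. GSNAP and GRCm38 are named in the submitters' processing notes; the sources used here do not give the counting tool, its strand setting or the annotation. Libraries were made from poly(A) RNA with a stranded kit, per the labels' protocols. RPKM was used only to compare levels between genes.

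Counts were tested with edgeR 4.0.16 (limma 3.58.1, R 4.3.3): genes kept by filterByExpr (19246 of 52636), TMM scaling, 1 design of 9 groups over all 39 libraries, the quasi-likelihood test, two-sided, and Benjamini-Hochberg adjustment over all tested genes at 0.05. Standard errors are the log2 fold change divided by the square root of F. The tests were tried on simulated counts first. DESeq2 1.42.0, voom and 14 other settings were alternatives. All libraries were mapped to groups by their treatment or group label; replicate numbers only name libraries. Positions came from the GENCODE M21 annotation of GRCm38, and promoters from RefSeq.

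Genes were named by a rule: Tmem106b, its paralogs and Grn; direct calls with a mean of at least 1 CPM and no overlap; the largest shared changes and changes past the threshold in 1 treatment only; and the 3 members of each of 45 lists with the smallest direct p. The pair, the lists (802 genes, 773 tested) and the tests were chosen with earlier results of these data known. A result for 1 gene named by this rule is not reported here.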

Additional observations from a re-analysis of the deposited data

Results flagged for a closer look

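Among 44 named genes, the saline and RTR59155 groups were searched for a library far from the other 4 of its group, in 88 groups of values. Such a gap appears by chance in about 1 of 20 groups, and 3 were found. Klf15 was 30.2 CPM in RTR59155 replicate 2 and 25.3 to 26.5 CPM in the other 4, which is the library nearest to ASO 1 for this gene. Ccl3 was 2.48 CPM in saline replicate 2 and 0.908 to 1.21 CPM in the other 4. Tmem106a was 3.38 CPM in saline replicate 2 and 1.91 to 2.17 CPM in the other 4.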

How the results depend on the processing

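The count of genes that differed between RTR59155 and ASO 1 was 8. It was 24 with DESeq2 (the same 8 among them), 0 with the 2 groups fitted alone, 3 with saline, ASO 1 and RTR59155 fitted alone, and 0 without the libraries with Pmch above 5 CPM. It ranged from 1 to 7 when each replicate was left out in turn. The count for RTR59155 against saline, 117, was 176 with voom and sample quality weights and 62 without the high-Pmch libraries, and 74 to 162 with a replicate left out, 74 without saline replicate 1 and 75 without RTR59155 replicate 2. The count for ASO 1 against saline, 44, was 124 with DESeq2, 73 with no expression filter, 27 with 2 groups, 26 with 3 groups, 26 with striatal and hypothalamic covariates and 10 without the high-Pmch libraries. With a replicate left out it ranged from 20 without ASO 1 replicate 1 to 142 without ASO 1 replicate 3, and was 24 without saline replicate 1 and 28 without ASO 1 replicate 2. Shared falls numbered 30, and 10 to 45 across the other tools, filters and subsets. Apart from the smaller number of libraries in some settings, the cause was not tested. Scaling by median of ratios gave 7 direct calls and moved the median of all genes by less than 0.01. No paired analysis was possible because the labels give no replicate numbers.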
